A study of Mus musculus with 272 samples.

Results

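The polyadenylated transcriptome of 8-cell mouse embryos was compared with that of morulae, the next stage in the series. The comparison used 8 of 272 libraries, 4 from 8-cell embryos and 4 from morulae, each taken by its label. A further 24 transcriptome libraries of the other 6 stages, from the germinal vesicle (GV) oocyte to the blastocyst, shared the estimate of the spread. Those of the 2-cell stage carry the letters E to H in the data, which match no sample label, and were assigned by stage name. Each transcriptome library came from a pool of 20 embryos drawn from the batch that also supplied the sucrose gradients of the same stage. RNA was amplified with a Smart-seq kit, tagmented and read as paired ends. Neither stage received an agent, and strain, genotype, parental age, embryo sex and culture conditions are not given in the sources used here. The 4 libraries of a stage carry the letters A to D, and no label says whether the pools came from separate females, so p-values measure the spread between these pools. Values below are listed in the order A to D.

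Depth overlapped between the stages. The 8-cell libraries held 14254838 to 22365217 reads assigned to genes and the morula libraries 18946117 to 24263239. Levels are in counts-per-million (CPM) of a library's assigned reads. Genes with at least 1 CPM were 294 more on average in morulae than in 8-cell embryos (exact permutation test, two-sided, p = 0.0286, the smallest that 4 against 4 allows; adjusted over 4 measures 0.114). The 18S ribosomal transcript Rn18s took 1.10 ± 0.45% of the 8-cell and 1.94 ± 1.37% of the morula values, with 3.95% in morula library A. That library also differed most from its group, with chi-square values per degree of freedom of 91.4 to 137 against the other morula libraries, where the other pairs of either stage gave 30.5 to 63.3. Early embryo transcripts were present in all 8 libraries: the summed CPM of Pou5f1, Cdh1, Tead4, Tfap2c, Nanog, Cdx2, Krt8 and Krt18 was 255 to 330 in 8-cell and 393 to 503 in morula libraries. Of 15 cumulus and granulosa markers, 5 were listed in the data and 4 could be tested. The sum of these 5 was 53.3 to 87.2 and 74.3 to 163 CPM, nearly all of it Gja1, a gap junction gene that embryos use as well, while Fshr and Cyp19a1 were at or near 0. Star, a steroidogenic gene of that list, rose from 0.126 ± 0.183 to 1.87 ± 0.72 CPM. Msx2, the 1 oviduct marker tested, was called higher (1.04), though not whichever library was left out. Blood and fibroblast markers summed to 20.6 to 35.6 and 21.2 to 39.4 CPM, and sperm markers to 0.577 to 1.83 and 0 to 0.912 CPM. The part of such cells in the results was not tested.

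An early mouse embryo divides without growing. At the 8-cell stage its rounded cells flatten against each other, a step called compaction that rests on E-cadherin and cortical actomyosin, and they acquire an apical domain facing outward. Later divisions set polar outer cells apart from apolar inner cells. In outer cells the apical domain keeps Hippo kinase signalling low, so that YAP and TEAD4 can switch on Cdx2 and Gata3 and the cells become trophectoderm, the epithelium that will pump the blastocyst cavity. In inner cells Hippo signalling stays active and the pluripotency programme of the inner cell mass takes hold, from which epiblast and primitive endoderm later separate.

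Between the 8-cell stage and the morula more genes rose than fell, and most changes were small. Of 14642 genes tested with limma on log2(CPM + 1), 1740 were called (11.9%), meaning a Benjamini-Hochberg adjusted p under 0.05 and a change of at least 1 on that log2 scale. Of these, 1198 were higher in morulae (8.18%) and 542 lower (3.7%). Of the genes that rose, 1090 changed by 1 to 2, 100 by 2 to 3 and 8 by more than 3, and of the genes that fell the counts were 506, 35 and 1. The median change was 1.29 among the genes that rose, -1.23 among those that fell and 0.07 over all genes tested. In 3295 genes (22.5%) the 4 morula values and the 4 8-cell values did not overlap, and 1412 of the called genes were among them. The mean was under 1 CPM in 8-cell embryos for 234 of the genes that rose and under 1 CPM in morulae for 85 of those that fell.

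The split between rises and falls depended on the scaling. As deposited, 68.85% of the called genes were higher. After quantile normalization 1547 genes were called, 805 higher and 742 lower (52.04% higher), and DESeq2 on the recovered reads called 2647, 1454 higher and 1193 lower (54.93% higher). No gene called here was called in the opposite direction under any of 18 alternatives. CPM is a share of the library, so it holds no measure of total RNA per embryo, and in these bulk pools fewer cells of a type and less RNA per cell cannot be told apart.

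**Figure D1:**
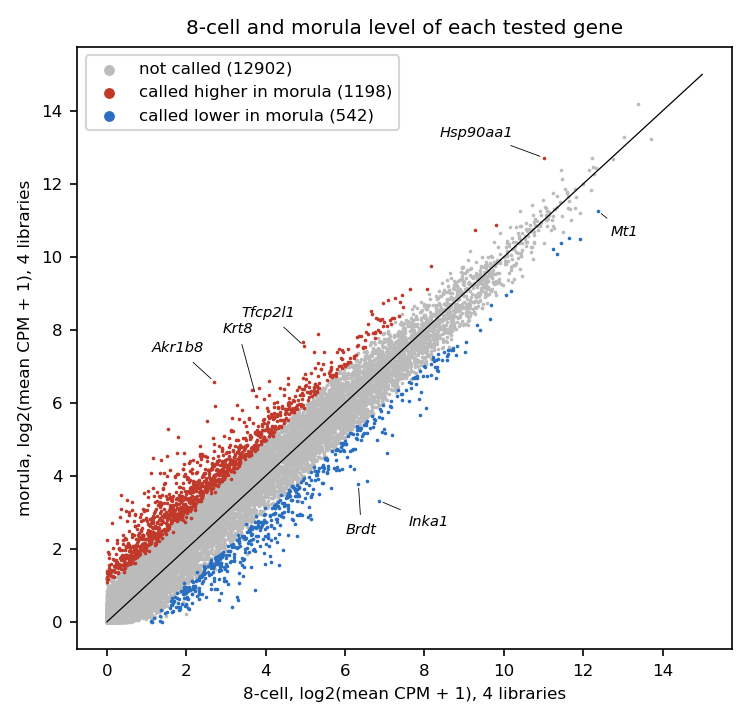
Mean CPM of each gene in morulae (vertical axis) against 8-cell embryos (horizontal axis), both as log2(mean CPM + 1) over 4 libraries, with genes called higher, called lower and not called in different colours. Akr1b8 lies far above the diagonal at 5.49 and 94.8 CPM, Inka1 far below it at 115 and 8.96 CPM, and Hsp90aa1 shows that abundant transcripts moved as well.

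The genes with the largest rises encode an aldo-keto reductase, a fatty acid desaturase, endocytic and adhesion receptors and epithelial transcription factors. Akr1b8, an aldo-keto reductase that reduces lipid aldehydes, was at 2.99, 4.67, 12.6 and 1.73 CPM in the 8-cell libraries and at 37.3, 69.2, 127 and 146 CPM in the morula libraries. Every morula library lay above every 8-cell library, and the change was 3.97 (SE 0.33, limma adjusted p 7.6e-11). Akr1b8 has close relatives in the genome, so part of its reads may have been assigned among them. Scd2, a stearoyl-CoA desaturase that makes monounsaturated fatty acids, was at 4.09, 1.01, 0.862 and 1.62 CPM and 20.8, 60.5, 19.7 and 51.7 CPM (change 3.71, SE 0.33, limma adjusted p 4.22e-10). The morula libraries B and D were the high ones, and the groups did not overlap.

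Lrp2, or megalin, a large endocytic receptor of absorptive epithelia, was at 8.19, 2.3, 11.9 and 0.115 CPM in 8-cell libraries, with library D close to 0, and at 37.2, 56.1, 73.7 and 68.3 CPM in morula libraries. It rose by 3.67 (SE 0.41, limma adjusted p 2.54e-08). Elf3, an ETS transcription factor of epithelia, rose by 3.30, from 0.941, 4.26, 2.8 and 1.85 CPM to 43, 26.2, 19.3 and 41.5 CPM. Klf6, a Krüppel-like zinc finger factor, was under 1 CPM in all 4 8-cell libraries and at 18.6, 4.04, 9.81 and 7.84 CPM in morulae, highest in library A (change 2.99). Otx2, a homeobox factor known from the epiblast and forebrain, rose by 2.67, from 1.03 ± 1.17 to 11 ± 3.64 CPM. Sdc4, a heparan sulfate proteoglycan of focal adhesions, rose by 3.08, from 1.14 ± 0.904 to 16 ± 2.99 CPM.

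Other large rises were in genes with varied roles. Cryab, a small heat shock protein, rose by 3.11, from 1.86 ± 1.49 to 22.3 ± 10.2 CPM, and Ptges, a prostaglandin E synthase, by 3.09, from 1.56 ± 1.3 to 20.7 ± 11.8 CPM. Interferon-related names were among them: Oasl2, of the oligoadenylate synthetase-like family, rose by 2.99, from 4.73 ± 1.7 to 44.7 ± 13.5 CPM, Trim38, a ubiquitin ligase of innate immune signalling, by 3.03, from 1.24 ± 0.652 to 21.3 ± 13.3 CPM, and Ly6e, a lipid-anchored surface protein, by 2.71, from 8.66 ± 3.64 to 59.8 ± 10 CPM. Camk2d, a calcium and calmodulin-dependent kinase, rose by 2.88, Svip, an inhibitor of endoplasmic reticulum-associated degradation, by 2.69, and Tfcp2l1, a transcription factor of naive pluripotent cells, by 2.65. In all 15 genes the morula libraries lay above the 8-cell libraries, as the way they were chosen required. The narrowest gap was that of Trim38, at 1.22, 1.56, 1.85 and 0.346 CPM and 3.75, 19.3, 34.7 and 27.4 CPM, where morula library A stood lowest.

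The largest fall was that of Inka1, an inhibitor of the kinase PAK4, which regulates the cytoskeleton. Inka1 was at 128, 120, 99 and 114 CPM in 8-cell libraries and 8, 15.1, 6.57 and 6.21 CPM in morula libraries, and the change was -3.62 (SE 0.26, limma adjusted p 3.65e-12). Klf17, a Krüppel-like factor of the early cleavage stages, fell by 2.78, from 89.5, 104, 71 and 107 CPM to 7.8, 21.9, 9.96 and 14 CPM. Brdt, a bromodomain protein known from male germ cells, fell by 2.56, from 79.7 ± 20.1 to 12.7 ± 3.17 CPM. In these genes all 4 8-cell libraries stood far above the morula libraries, and the spread within a stage was small beside the difference.

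Several of the other falls were in genes of germ cell, signalling or membrane function. Prdm14, which keeps germ cells and naive pluripotent cells from differentiating, fell by 2.18, from 7.8, 17.5, 19 and 21.7 CPM to 0.0506, 7.65, 2.04 and 5.3 CPM, where morula library A was close to 0 and 8-cell library A stood next to morula library B. Zfp644, a zinc finger protein that works with histone methyltransferases, fell by 2.27, from 235 ± 4.23 to 49.9 ± 16.8 CPM, with 8-cell libraries within a few CPM of each other. Tiparp, an ADP-ribosyltransferase induced by the aryl hydrocarbon receptor, fell by 2.24, from 264 ± 38.8 to 56.8 ± 19.4 CPM. Exoc3l2, related to the exocyst that tethers secretory vesicles, fell by 2.40, from 132 ± 29.6 to 23.9 ± 3.1 CPM. The others were Krt28 (-2.48), a keratin, Slc19a3 (-2.34), a thiamine transporter, Vmn2r63 (-2.29), a vomeronasal receptor gene of a large family, Sardh (-2.28), sarcosine dehydrogenase, Stk10 (-2.21), a kinase, Tmem229b (-2.15), a membrane protein, Gpr160 (-2.15), an orphan receptor, and Calhm6 (-2.15), a channel family member. Each of these 15 falls and of the 15 rises above was called in all 18 alternatives.

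**Figure D2:**
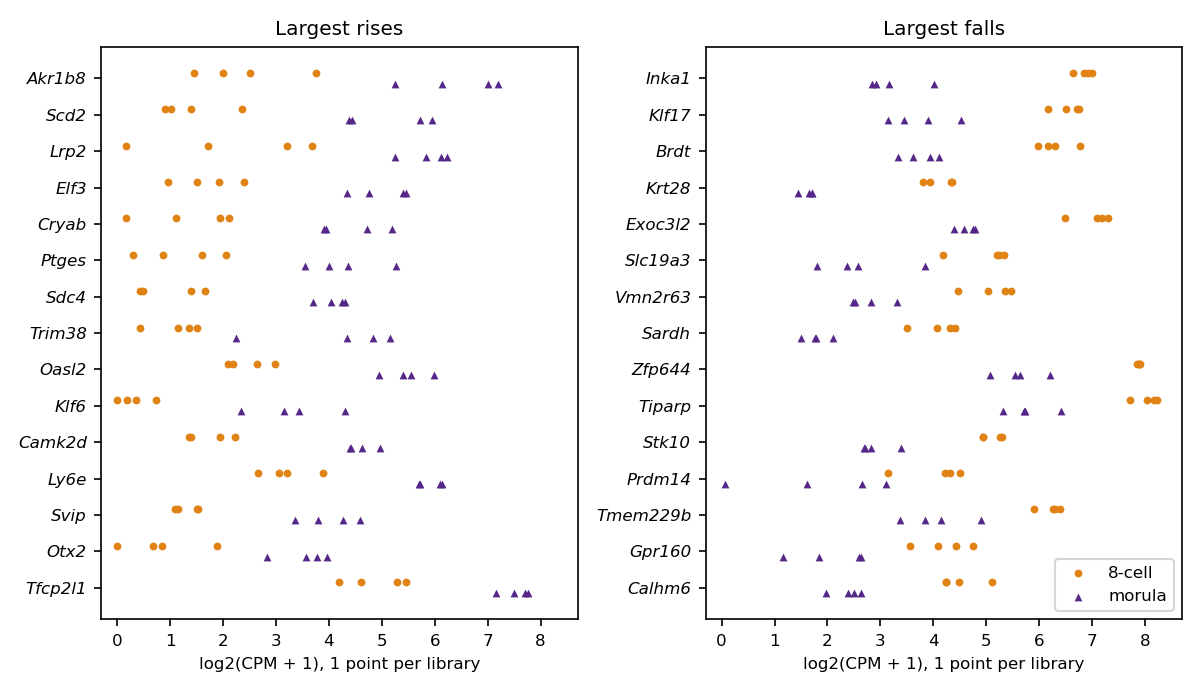
CPM as log2(CPM + 1) in each of the 4 8-cell (circles) and 4 morula (triangles) libraries for the 15 genes with the largest rises and the 15 with the largest falls. Each point is 1 library. The circles and triangles do not overlap in any of them, and they are nearest to each other in Prdm14. Akr1b8 (change 3.97) and Inka1 (change -3.62) head the columns.

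Promoter windows were read for genes at both ends of this list, to show what sequence lies before starts that moved in opposite directions. They come from RefSeq on the mouse build GRCm38.p6, an earlier build than the one used for alignment, and were matched by symbol. Of 14642 genes tested, 11180 had such a window, which runs from 250 bases before the annotated start to 50 bases after it. Scd2 had none. Capitals mark matches to 6 motifs on either strand: the TEAD motif GGAATG, the AP-2 motif GCCNNNGGC, the antioxidant response element TGACNNNGC, the sterol regulatory element TCACNCCAC, the CCAAT box and the cyclic AMP response element TGACGTCA. Akr1b8 (chr6:34353896-34354195, plus strand) and Elf3 (chr1:135258423-135258722, minus strand) rose, and Inka1 (chr9:107985867-107986166, minus strand) and Klf17 (chr4:117765617-117765916, minus strand) fell.
Akr1b8: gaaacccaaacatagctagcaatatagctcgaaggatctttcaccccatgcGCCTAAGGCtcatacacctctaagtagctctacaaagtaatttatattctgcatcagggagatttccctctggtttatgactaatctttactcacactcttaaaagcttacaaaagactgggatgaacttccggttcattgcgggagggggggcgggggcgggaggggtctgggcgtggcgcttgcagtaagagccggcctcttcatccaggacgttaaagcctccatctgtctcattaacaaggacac
Elf3: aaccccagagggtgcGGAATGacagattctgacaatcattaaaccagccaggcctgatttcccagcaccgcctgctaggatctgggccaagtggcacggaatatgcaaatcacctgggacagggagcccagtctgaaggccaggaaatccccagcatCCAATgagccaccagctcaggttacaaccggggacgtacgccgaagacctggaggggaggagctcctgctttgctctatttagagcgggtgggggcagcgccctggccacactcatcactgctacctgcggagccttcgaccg
Inka1: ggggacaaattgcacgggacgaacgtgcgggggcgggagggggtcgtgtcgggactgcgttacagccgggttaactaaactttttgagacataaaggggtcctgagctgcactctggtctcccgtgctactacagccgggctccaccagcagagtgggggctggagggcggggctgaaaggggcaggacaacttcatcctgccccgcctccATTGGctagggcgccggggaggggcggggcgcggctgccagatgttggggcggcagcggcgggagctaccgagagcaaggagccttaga
Klf17: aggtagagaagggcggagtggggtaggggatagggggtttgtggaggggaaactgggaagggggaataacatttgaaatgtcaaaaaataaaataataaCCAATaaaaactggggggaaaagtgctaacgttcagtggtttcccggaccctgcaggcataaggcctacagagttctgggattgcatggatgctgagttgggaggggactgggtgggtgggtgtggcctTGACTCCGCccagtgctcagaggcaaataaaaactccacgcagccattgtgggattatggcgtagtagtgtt
The Akr1b8 window holds 1 AP-2 match and the Elf3 window a TEAD match and a CCAAT box. The Inka1 window holds a CCAAT box, read on the minus strand as ATTGG, and the Klf17 window a CCAAT box and an antioxidant response element match. Over all genes with a window, TEAD matches lay in 13.1% of the windows of genes called higher, 12.4% of those called lower and 12.2% of all tested. AP-2 matches lay in 26.6%, 27.2% and 24%, antioxidant response element matches in 13%, 14.8% and 14.8%, and sterol regulatory element matches in 0.646%, 1.46% and 1.1%. The CCAAT box was in 44.3%, 37.9% and 39.4%, and the cyclic AMP response element in 3.01%, 1.94% and 3.1%. A match is a string of letters and not a bound site.

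Among abundant transcripts a chaperone gained the most CPM of the genes called. Hsp90aa1, the inducible HSP90, was at 2166, 1772, 2275 and 2029 CPM in 8-cell libraries and 4881, 7525, 7979 and 6516 CPM in morulae, and rose by 1.69 (limma adjusted p 6.83e-11). Rn18s, Hspa8, Dppa3 and Zfp706 also gained much CPM and were not called (changes 0.69, 0.86, 0.41 and 0.66), and their stages overlapped. Hspa8 was called without morula library A (1.12). Among losses, Mt1, the metal-binding metallothionein, fell by 1.11, from 5298 ± 925 to 2446 ± 368 CPM. Gcsh, the lipoyl carrier of the glycine cleavage system, fell by 1.46, from 3887 ± 287 to 1431 ± 273 CPM, and H3f3b, which encodes the replication-independent histone H3.3, by 1.26, from 2599 ± 360.1 to 1082 ± 107 CPM. Ccnb1, cyclin B1, fell by 1.17, from 3185 ± 632 to 1473 ± 489 CPM, and was no longer called without morula library A (-0.87). Map1lc3b, an autophagy gene, had the largest loss of all, with 13410 ± 1042 and 9618 ± 464 CPM. Its change was -0.48, under the size asked for a call, although its stages did not overlap.

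Epithelial genes of the trophectoderm were the group with the largest median change among those listed with 10 or more members. Lists and members were chosen with earlier results of these data known, so this rank is a description and not a test. Of 18 measured, 9 were called higher and the others were not called, with a median change of 1.10 beside 0.07 over all genes. Over all genes tested 8.18% were called higher and 3.7% lower, and the counts of each list below stand beside these shares. Krt8 and Krt18, the keratins of simple epithelia, were at 16.7, 13.7, 10.3 and 9.06 and at 10.8, 15.1, 7.63 and 9.87 CPM in 8-cell embryos. In morulae they were at 73.6, 61.5, 56.5 and 96.7 and 46.6, 43.5, 47.2 and 49.9 CPM, above every 8-cell value, and they rose by 2.45 and 2.05. Both have processed copies in the genome that may take part of their reads. Dab2, a clathrin adaptor that works with megalin, rose by 1.57, from 95.1 ± 23.3 to 283 ± 64.3 CPM, and Fabp3, a fatty acid binding protein, by 1.43, from 49 ± 26.6 to 126 ± 37.3 CPM. Cldn4, a claudin of tight junctions, rose by 1.80, from 11.7 ± 4.68 to 42.4 ± 11.3 CPM, and Slc2a1, the glucose transporter GLUT1, by 1.81, from 0.39 ± 0.377 to 3.77 ± 0.672 CPM. Lrp2, Cryab and Ptges were the other 3. The list had 9 calls whichever library was left out, and 8 of the 9 genes were called in every alternative that tested them. The exception was Fabp3, which was not called by DESeq2 nor with a pseudocount of 0.1.

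Transcription factors of the trophectoderm moved less as a group. Of 12 tested, 3 were called higher (median 0.37). Cdx2, the homeobox factor that sets trophectoderm identity, was at 5.31, 0.947, 1.08 and 0 CPM in 8-cell and 14.3, 4.16, 8.21 and 7.66 CPM in morula libraries and rose by 1.99 (limma adjusted p 7.37e-06). The A libraries of both stages were the highest for Cdx2, and 8-cell library A lay above morula library B. Gata3, which acts beside Cdx2, rose by 1.72, from 4.25 ± 2.65 to 14.6 ± 1.5 CPM, without overlap. Ets2 rose by 1.01, to only 1.35 ± 0.617 CPM, and its call was lost without 8-cell library D (0.95), morula library A (0.90) and morula library B (0.91). Gata2 was near 0 in both stages (0.113 and 0.136 CPM). Tead4, the factor above Cdx2, was at 97.6 ± 22 and 94.6 ± 21.3 CPM, Tfap2c at 83.9 ± 9.36 and 90.2 ± 6.32 CPM, Klf5 at 394 ± 70.4 and 525 ± 81.6 CPM and Eomes at 1.01 and 1.39 CPM, and none of these was called. DESeq2 called 2 of this list higher and 1 lower, without Cdx2.

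Genes of pluripotency and the inner cell mass split. Of 22 tested, 4 were called higher and 1, Prdm14, lower, and the median change of 0.07 was that of all genes. Tfcp2l1 was at 42.9, 23.4, 38 and 17.3 CPM in 8-cell and 216, 208, 143 and 179 CPM in morula libraries, a change of 2.65 with a wide gap between the stages. Gdf3, a ligand of the TGF-beta family, rose by 2.11, from 8.05 ± 4.24 to 36.6 ± 13.1 CPM, and Utf1, a chromatin factor of pluripotent cells, by 1.43, from 29.2 ± 3.16 to 82.2 ± 21.5 CPM. Nanog was at 11.1, 20.4, 18.6 and 16.3 CPM and 24.6, 37.7, 37 and 90.7 CPM, with morula library D far above the others. It rose by 1.33, and was not called without morula library D (0.96) nor with a pseudocount of 0.1. Pou5f1, which encodes OCT4, was at 24.9 ± 6.02 and 32.5 ± 12.8 CPM and was not called, and Sox2 was near 0 in both stages (0.278 and 0.192 CPM). The median of the list was -0.05 with DESeq2.

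Of 12 primitive endoderm genes, 3 were called higher and 1 lower (median -0.12, and between -0.14 and 0.05 with 1 library left out). The GATA factors of this lineage went opposite ways. Gata6 was at 60.1, 59.8, 79.8 and 44.8 CPM in 8-cell and 200.3, 161, 153 and 153 CPM in morula libraries and rose by 1.45. Gata4 was at 19.5, 19.4, 14.9 and 12.4 CPM and 5.17, 6.14, 7.47 and 4.8 CPM and fell by 1.34. Both pairs of stages were free of overlap and both calls held in every alternative. Lamb1, a laminin chain, rose by 1.70, from 4.4 ± 2.8 to 15.6 ± 4.65 CPM, and Dab2 is shared with the trophectoderm list. Sox17, which marks committed primitive endoderm, was listed at 0 in all 8 libraries.

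The Hippo pathway, whose kinases STK3 and STK4 pass through LATS1 and LATS2 to hold YAP out of the nucleus, had 2 called genes of 19 (median -0.04). That is near the share called over all genes tested (11.9%), so the count does not set this list apart. Amot, an angiomotin that activates LATS in inner cells, was at 13.5, 10.3, 11.8 and 5.94 CPM in 8-cell and 36.8, 48.1, 45.5 and 31.4 CPM in morula libraries and rose by 1.89 (limma adjusted p 2.59e-06). Stk3, which encodes the kinase MST2, rose by 1.30, from 4.47 ± 1.72 to 12.2 ± 3.04 CPM. The other members were not called, among them Nf2 (63.3 and 37.8 CPM), Lats1 (12.3 and 14.7 CPM), Lats2 (13.2 and 15.2 CPM), Yap1 (52.8 and 41.2 CPM), Wwtr1 (148 and 97 CPM) and the relative Amotl1 (0.468 and 1.82 CPM). Amotl1 was called without 8-cell library C (1.03), morula library B (1.05) and morula library D (1.03). Without 8-cell library C, and without morula library B, 3 were called higher and 1 lower, and the median was 0.09 and 0.03.

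Most listed genes of cell adhesion and of the cell poles were not called, and most of the called ones were higher in morulae. Over all genes tested the share called was 11.9%. Of 18 adherens junction and compaction genes, 3 were called higher and 1 lower (median 0.70). Rock2, a kinase that drives actomyosin contraction, rose by 1.25, from 27.2, 49.1, 37 and 30.9 CPM to 78.8, 87, 90.7 and 84.2 CPM, and Ezr, the microvillar linker ezrin, by 1.31, from 1.91 ± 1.16 to 6.39 ± 3.39 CPM, with overlap. Ctnnb1, beta-catenin, rose by 1.03, from 25.4 ± 5.97 to 52.7 ± 9.71 CPM, and its call was lost without 8-cell library A (0.96), 8-cell library C (1.00), 8-cell library D (0.99), morula library C (0.98) and morula library D (0.95). Vcl, which encodes the junction protein vinculin, fell by 1.29, from 13.3, 14.5, 12 and 13.8 CPM to 4.71, 7.45, 3.14 and 4.99 CPM, and its morula values lay below those of all 28 other transcriptome libraries. Cdh1, E-cadherin itself, was at 42.8 ± 9.91 and 46 ± 14.2 CPM and Ctnna1, alpha-catenin, at 110.3 ± 16.9 and 149 ± 21.9 CPM, and neither was called.

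Of 18 apical-basal polarity genes, 4 were called higher (median 0.50): Pard6g (1.32), Prkci (1.23), Pard6b (1.20) and Llgl1 (1.18). Pard6b and Prkci encode partners in the apical PAR-aPKC complex and went from 9.77 ± 4.69 to 22.4 ± 4.89 CPM and from 9.64 ± 5.04 to 21.9 ± 4.76 CPM, and Llgl1, a basolateral antagonist of that complex, went from 9.33 ± 1.56 to 23.4 ± 8.04 CPM. With 1 library left out, Prkci was not called without 8-cell library A (0.89) nor Pard6b without 8-cell library D (0.99). After quantile normalization 2 of the 4 calls were left. Pard3, the scaffold of the complex, was at 12.6 and 21.2 CPM and Pard6a at 15.8 and 15.7 CPM, not called. Of 14 tight junction genes, Cldn4 and Marveld3 were called (median 0.52), and 4 were called without morula library B. Marveld3, a membrane protein of tight junctions, rose by 1.45, to 2.58 ± 0.799 CPM. Tjp1 (62.3 and 52.5 CPM) and Tjp3 (3.41 and 7.16 CPM), scaffolds of the junction, were not called, though Tjp3 was called without 8-cell library A (1.14), 8-cell library B (1.28), morula library B (1.25) and morula library C (1.09).

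Actin and its partners included abundant genes that rose. Of 23 genes of actin and the cortex, 6 were called higher and 1 lower (median 0.55). Actg1, cytoplasmic gamma-actin, was at 196, 204, 170.5 and 119 CPM and 549, 572, 412 and 432 CPM (change 1.52), and Actb, beta-actin, rose by 1.15, from 885 ± 327 to 1877 ± 243 CPM. The actins are near-identical in their coding parts and have many processed copies, so the division of reads between them is uncertain. Tmsb10, a thymosin that binds actin monomers, rose by 1.27, from 59.6 ± 4.17 to 145 ± 10.9 CPM, and Capg, which caps filament ends, by 1.11, from 3.01 ± 1.56 to 7.12 ± 1.66 CPM. Actn4, an actin cross-linker, rose by 1.09 and Tpm1, a tropomyosin, by 1.05. Vil1, villin of microvilli, fell by 1.31, from 3.08 ± 1.79 to 0.536 ± 0.418 CPM, with overlap. The calls of Actb (without 8-cell library D (0.97)), Actn4 (without morula library A (0.99)), Tpm1 (without 8-cell library D (0.95), morula library A (0.81) and morula library D (1.00)) and Capg (without 8-cell library C (0.74)) were each lost at times, and DESeq2 called 3 of the list higher and 1 lower.

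Laminin chains rose together with their receptor dystroglycan. Of 19 integrin and basement membrane genes, 5 were called higher and 1 lower (median 0.57). Beside Lamb1, Lama5 rose by 1.49, from 6.58, 4.2, 5.52 and 3.52 CPM to 16.1, 16.7, 14.9 and 14.1 CPM, and Lamc1 by 1.59, from 3.49, 1.69, 1.59 and 3.64 CPM to 7.8, 9.2, 11.4 and 9.79 CPM. These 3 chains can form the trimer laminin-511. Lama5 and Lamc1 did not overlap between stages, while for Lamb1 8-cell library A, at 8.35 CPM, came close to morula library A, at 8.76 CPM. Dag1, dystroglycan, rose by 1.28, from 5.61 ± 1.17 to 14.9 ± 1.43 CPM. Nid1, nidogen, rose by 1.08, from 20.8 ± 7.97 to 45.5 ± 18.9 CPM, with its call lost without 8-cell library B (0.80), morula library B (0.87) and morula library C (0.95). Itgav, the integrin alpha-V chain, fell by 1.04, from 25.1 ± 5.07 to 11.7 ± 2.62 CPM, with its call lost without 8-cell library D (-0.93) and morula library D (-0.92). Itgb1 (23.3 and 35.3 CPM), Itgb5 (83.5 and 47.5 CPM) and Itga3 (10 and 13.6 CPM) were not called.

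**Figure D3:**
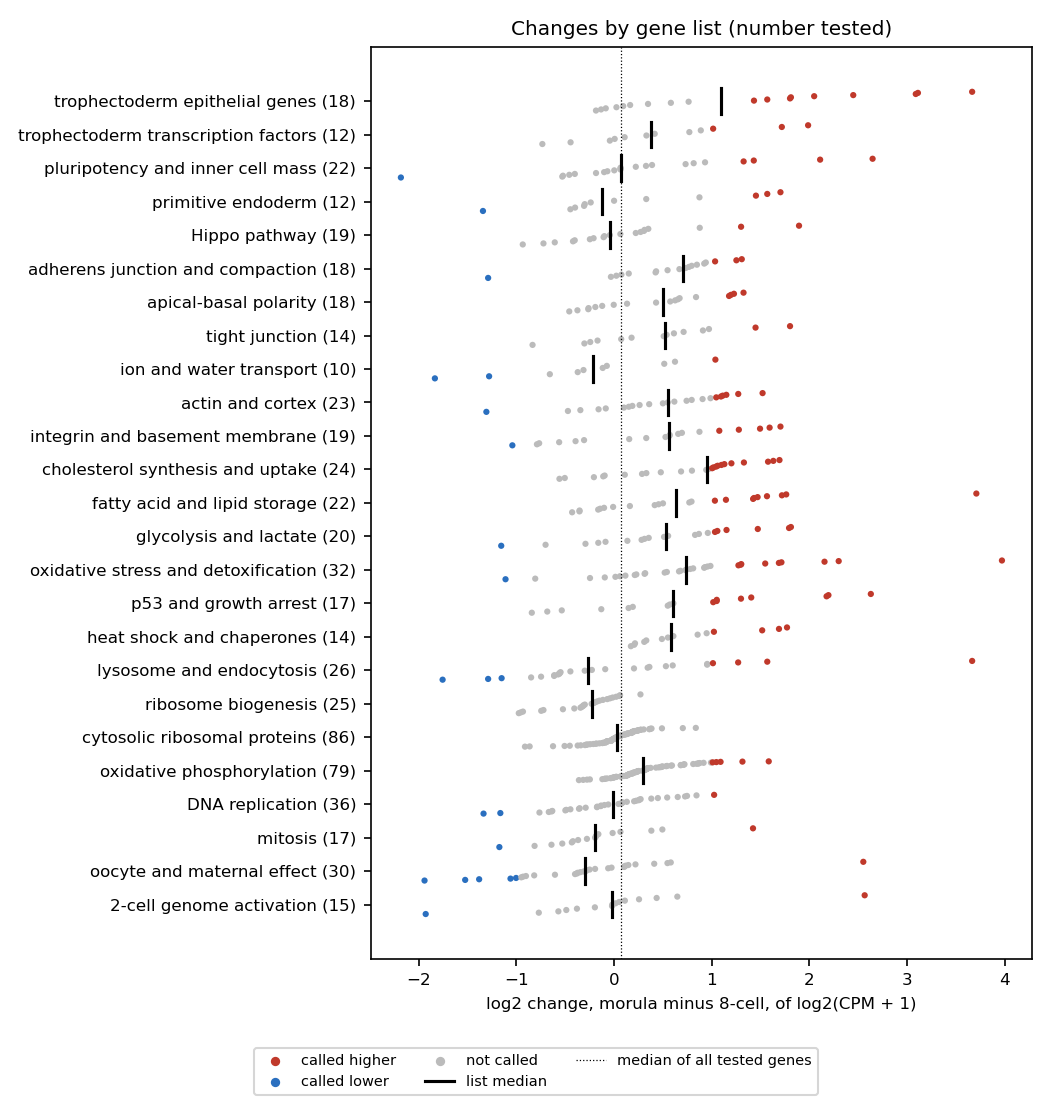
Log2 change on the log2(CPM + 1) scale of every tested member of 25 gene lists, with called members coloured and the list median drawn as a bar. The dotted vertical line marks the median change of all tested genes (0.07). Trophectoderm epithelial genes (median 1.10) and cholesterol genes (median 0.96) lie furthest right, and oocyte genes (median -0.30) lie left.

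The cholesterol genes that rose lay at several steps of the pathway. Of 24 genes of cholesterol synthesis and uptake, 11 were called higher and the other 13 were not called (median 0.96). Insig1, the sterol sensor that holds SREBP in the endoplasmic reticulum and is itself an SREBP target, was at 3.43, 3.45, 1.47 and 5.54 CPM and 13.7, 12.2, 11.7 and 13.2 CPM, a change of 1.69 (limma adjusted p 7.28e-07). Stard4, a carrier that moves sterols between membranes, was at 40.1, 39.6, 52.4 and 37.3 CPM and 188, 153, 95.9 and 95 CPM, with libraries A and B the higher morulae, and rose by 1.58. Nsdhl, a sterol dehydrogenase, rose by 1.63, from 5.97, 1.96, 15.8 and 2.89 CPM to 9.52, 20.6, 22.5 and 22.2 CPM, with 8-cell library C above morula library A. Pmvk, phosphomevalonate kinase, rose by 1.33, from 13.8 ± 4.32 to 35.1 ± 5.93 CPM, Cyp51, the lanosterol demethylase, by 1.20, from 6.59 ± 2.53 to 15.8 ± 2.39 CPM, and Mvk, mevalonate kinase, by 1.13, from 3.25 ± 2.72 to 7.25 ± 2.48 CPM. Other calls were Acat2 (1.06), Mvd (1.00), Hsd17b7 (1.02) and Dhcr7 (1.04). Acat2 was not called without 8-cell library B (0.98) and morula library C (0.98), and Dhcr7 not without 8-cell library D (0.89) and morula library D (0.94). Mvd was not called without 8-cell library A (0.83), 8-cell library D (0.81), morula library A (0.93), morula library C (0.99) and morula library D (0.87). Hsd17b7 was not called without 8-cell library A (0.83), morula library B (0.92) and morula library D (0.82). Mvk was not called without 8-cell library A (0.82), 8-cell library D (0.96) and morula library A (0.94).

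Srebf2, which encodes the transcription factor SREBP-2, was at 32.2 ± 12.1 and 27.8 ± 9.3 CPM and was not called. The count of this list was among the least stable. It was 4 after quantile normalization, 8 with DESeq2, 9 with edgeR, 13 with a pseudocount of 0.1, 7 without 8-cell library A and 12 without 8-cell library C. Insig1, Stard4, Nsdhl and Pmvk were the 4 called in every alternative.

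The CCAAT box was common in the promoter windows of this list. It is a motif to which the factor NF-Y binds, and it was found in 15 of the 17 members with a window (88.2%) and in 7 of the 9 called members with one (77.8%), beside 39.4% of all genes tested. The box was also frequent in the p53 and growth arrest list, in 8 of 13 windows (61.5%). It was in 32% of the windows of antioxidant genes and 17.6% of those of trophectoderm epithelial genes. A sterol regulatory element match of the form searched was in 1 of the 17 windows of the cholesterol list. Insig1 (chr5:28071162-28071461, plus strand) and Nsdhl (chrX:72918271-72918570, plus strand) were picked among the called members whose windows hold a CCAAT box. The boxes are in capitals, as ATTGG in Insig1 and in both orientations in Nsdhl.
Insig1: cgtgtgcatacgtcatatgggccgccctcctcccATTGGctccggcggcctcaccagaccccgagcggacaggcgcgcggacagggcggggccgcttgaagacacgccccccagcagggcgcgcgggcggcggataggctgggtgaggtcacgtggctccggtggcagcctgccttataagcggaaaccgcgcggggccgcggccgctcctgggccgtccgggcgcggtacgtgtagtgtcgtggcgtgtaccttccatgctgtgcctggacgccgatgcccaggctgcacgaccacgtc
Nsdhl: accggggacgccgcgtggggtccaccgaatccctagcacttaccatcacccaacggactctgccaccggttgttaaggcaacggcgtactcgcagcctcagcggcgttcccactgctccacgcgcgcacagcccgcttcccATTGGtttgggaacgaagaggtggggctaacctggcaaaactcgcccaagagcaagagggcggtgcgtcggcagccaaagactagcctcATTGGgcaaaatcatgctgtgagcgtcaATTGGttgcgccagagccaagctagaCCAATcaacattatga
Insig1 has 1 such box and Nsdhl has 4. The same box is in the windows of Inka1 and Klf17, which fell.

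Some genes of fatty acid handling rose as well. Of 22 tested, 9 were called higher and the other 13 were not called (median 0.64). Besides Scd2, Pnpla2, the lipase that opens lipid droplets, rose by 1.76, from 5.19 ± 4.07 to 17.3 ± 5.14 CPM, and Plin2, which coats them, by 1.42, from 21.1, 15, 26.8 and 10 CPM to 41.6, 36.1, 61 and 56.3 CPM. Fabp5, another fatty acid binding protein, rose by 1.72, from 36.8 ± 8.88 to 123 ± 26.2 CPM, Lpin1, a phosphatidate phosphatase, by 1.56, from 1.39 ± 1.25 to 5.48 ± 1.17 CPM, and Fads1, a desaturase of polyunsaturated chains, by 1.47, from 0.798 ± 0.398 to 3.91 ± 0.572 CPM. The list also counts Fabp3, given above. Fasn, fatty acid synthase, rose by 1.15, from 38.8, 46.6, 37.5 and 34 CPM to 145, 71.7, 76.4 and 73.3 CPM, where morula library A was the highest by far, and its call was lost without morula library A (0.90). Acly (28.5 and 41.3 CPM) and Acaca (13.2 and 17.6 CPM), which supply malonyl-CoA, were not called, and neither was Scd1 (28.4 and 29.3 CPM).

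Of 20 genes of glycolysis and lactate, 6 were called higher and 1 lower (median 0.53). Slc2a1 had the largest rise (1.81). Ldha, which makes lactate, rose by 1.79, from 0.941, 1.35, 1.64 and 2.37 CPM to 6.08, 13, 7.42 and 5.98 CPM, and Aldoa, aldolase A, by 1.47, from 92.2, 113, 151 and 97.4 CPM to 352, 342, 251 and 308 CPM, without overlap. Tpi1 rose by 1.15, from 5.49 ± 1.72 to 13.2 ± 1.94 CPM, and Pkm, pyruvate kinase, by 1.06, from 10.6 ± 3.75 to 23.2 ± 8.18 CPM, with its call lost without 8-cell library A (0.92), 8-cell library D (0.97) and morula library A (0.86). Pfkfb3, which makes the activator of phosphofructokinase, fell by 1.16, from 26.6 ± 1.84 to 11.5 ± 2.46 CPM. Slc2a3 (17.6 and 22 CPM) and Hk1 (39.5 and 35.8 CPM) were not called. After quantile normalization 3 of the list were called higher and 1 lower. Gapdh was listed at only 0.411 and 1.06 CPM, not called by limma and called higher by edgeR and DESeq2. Glycolytic genes have many processed copies, and how reads that match several places were treated is not given in the sources used here, so levels of these genes are uncertain.

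Genes of oxidative phosphorylation showed small shifts. Of 79 nuclear genes, 5 were called higher (median 0.29), with Ndufa6 (1.58, from 54.3 ± 8.23 to 166 ± 38.4 CPM) and Ndufa10 (1.31, from 43.4 ± 6.55 to 109 ± 9.79 CPM), both of complex I, called in every alternative. Ndufa3 (not called without 8-cell library A (0.96) and morula library D (0.91)), Ndufb1 (not called without 8-cell library A (0.91), 8-cell library B (0.99), 8-cell library D (0.97), morula library A (0.98) and morula library D (0.89)) and Sdhc (not called without morula library C (0.96)) were the others, and the count was 2 with DESeq2, 3 without 8-cell library A or without morula library D, and 8 without 8-cell library C. Of 77 mitochondrial ribosomal protein genes, Mrps12 (1.27), Mrpl24 (1.25) and Mrpl36 (1.15) were called higher (median 0.15). No gene of the mitochondrial genome was analysed here.

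Several antioxidant and detoxifying genes rose. Of 32 tested, 9 were called higher and 1, Mt1, lower (median 0.74), and 14 were called higher without 8-cell library B. Beside Akr1b8, Gss, glutathione synthetase, rose by 2.30, from 0.775, 3.52, 7.67 and 5.19 CPM to 33.6, 19.4, 15.3 and 20.9 CPM, and Cat, catalase, by 2.15, from 2.21, 1.29, 2.07 and 0 CPM to 7.59, 9.47, 6.97 and 11.3 CPM. Both were without overlap, with 8-cell library A lowest for Gss and 8-cell library D at 0 for Cat. Srxn1, which repairs oxidised peroxiredoxins, rose by 1.71, from 0.546 ± 0.586 to 3.96 ± 1.34 CPM, Gsto1, a glutathione transferase, by 1.69, from 134 ± 50.3 to 446 ± 210.2 CPM, and Txn1, thioredoxin, by 1.55, from 108 ± 12.1 to 319 ± 56 CPM. Txnrd1, its reductase, rose by 1.30, and Gclc, which starts glutathione synthesis, by 1.27. Hmox1, heme oxygenase, rose by 1.30, to 3.19 ± 2.29 CPM, and was not called without morula library A (1.01), nor by edgeR or DESeq2. Nfe2l2, which encodes the regulator NRF2, was at 11.8 ± 3.24 and 23.1 ± 4.44 CPM (change 0.93), Keap1, its inhibitor, at 13.2 ± 2.17 and 13.5 ± 3.54 CPM and Nqo1 at 1.22 ± 1.15 and 2.51 ± 0.665 CPM, none of them called. With 1 library left out, Nfe2l2 was called without 8-cell library B (1.04) and 8-cell library D (1.00) and Nqo1 without 8-cell library B (1.06) and 8-cell library C (1.03).

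Trp53 and several genes known as p53 targets rose. Of 17 tested, 8 were called higher (median 0.61). Trp53 was at 18.3, 10.8, 11.2 and 17.5 CPM in 8-cell and 80, 65, 63.6 and 63.8 CPM in morula libraries and rose by 2.19 (limma adjusted p 5.75e-10). Its 8-cell values lay below those of all other 28 transcriptome libraries. Ccng1, cyclin G1, was at 11, 15.6, 9.61 and 10.2 CPM and 127, 85.4, 69.5 and 43.2 CPM and rose by 2.63, and Pmaip1, which encodes the death factor NOXA, rose by 2.17, from 1.63 ± 1.47 to 10.1 ± 3.06 CPM. In Ccng1 the morula libraries spread widely around the highest, library A. Zmat3, an RNA-binding target of p53, rose by 1.40, from 1.98 ± 0.682 to 7.9 ± 6.05 CPM, and Perp, a desmosome and death protein, by 1.30, from 13.4 ± 2.88 to 35.2 ± 11.8 CPM.

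Morula library A was the highest morula value for Trp53, Ccng1, Zmat3, Perp, Cdkn1a and Phlda3. Cdkn1a, the kinase inhibitor p21, was at 73.5, 82.8, 63.4 and 72.9 CPM and 209.5, 161, 134 and 118 CPM and rose by 1.05, and was not called without 8-cell library C (0.99) and morula library A (0.90). Phlda3 and Btg2 had changes of 1.05 and 1.01, with calls lost without 8-cell library C (0.92), 8-cell library D (0.96) and morula library A (0.60) for the first and without 8-cell library B (0.84), 8-cell library C (0.95), morula library A (1.00) and morula library C (0.84) for the second. The list had 5 calls without morula library A, without 8-cell library C and after quantile normalization. Mdm2, the ligase that removes p53 and is a target of it, was at 40.7 ± 5.14 and 63.6 ± 16.5 CPM (change 0.61), Mdm4 at 101 ± 15.5 and 63.3 ± 16.5 CPM and Bax at 79.9 ± 4.67 and 123 ± 39.5 CPM, and these were not called. Morula library A also had the largest Rn18s share. Trp53, Ccng1, Pmaip1, Zmat3 and Perp were called without it.

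A few chaperones of the cytosol and mitochondrion rose. Of 14 heat shock and chaperone genes, 4 were called higher and the other 10 were not called (median 0.58). Hspe1, the mitochondrial HSP10, was at 126, 149, 127 and 93.5 CPM and 452, 429.7, 349 and 457 CPM (change 1.77), and its partner Hspd1, HSP60, rose by 1.02, from 162 ± 11.1 to 334 ± 61.6 CPM, with the call lost without 8-cell library D (0.98), morula library B (0.97) and morula library D (0.95). Hsph1, a nucleotide exchange factor for HSP70, rose by 1.52, from 77.9 ± 9.56 to 224 ± 23.9 CPM, beside Hsp90aa1. The classic stress-induced Hspa1a (0.969 and 1.27 CPM) and Hspa1b (1.93 and 3.36 CPM) and the testis-enriched Hspa2 (5.84 and 10.6 CPM) were not called, though Hspa2 was called without 8-cell library B (1.10), 8-cell library D (1.27), morula library A (1.02) and morula library C (1.04). Among 22 genes of the integrated stress and unfolded protein responses, Shmt2, a mitochondrial folate enzyme, was called higher (1.09, not called without 8-cell library B (0.99)) and Chac1, which breaks down glutathione, lower (-1.03, not called without 8-cell library A (-0.71), 8-cell library B (-0.90), 8-cell library C (-1.04), morula library C (-0.98) and morula library D (-0.73)). Eif2ak3 (5.88 and 3.33 CPM), Ern1 (9.26 and 4.8 CPM) and Atf3 (0 and 0.0453 CPM) were not called, though Ern1 was called lower by edgeR and DESeq2 and after quantile normalization. Of 37 proteasome genes, Psmd2 (1.04, not called without 8-cell library D (0.97) and morula library A (0.99)) and the immunoproteasome subunit Psmb9 (1.34) were called, and neither was by edgeR or DESeq2.

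Lysosomal genes went both ways. Of 26 genes of lysosome and endocytosis, 4 were called higher and 3 lower (median -0.26). The falls were in cathepsins and a membrane protein: Ctsb fell by 1.75, from 229.9, 181, 228 and 283 CPM to 60.5, 73.3, 83.3 and 54 CPM, Ctsl by 1.29, from 418 ± 118 to 175 ± 64 CPM, and Lamp2 by 1.15, from 284 ± 123 to 133 ± 63 CPM, the last with overlap and not called without 8-cell library D (-0.89) and morula library A (-0.76). The rises were Lrp2 and Dab2, of the endocytic apparatus, and the glycosidases Hexa (1.27, not called without 8-cell library D (0.94)) and Gaa (1.01, not called without 8-cell library B (0.92), morula library B (0.99), morula library C (0.97) and morula library D (0.90)). Lamp1 (109.6 and 169 CPM) and Cd63 (856 and 737 CPM) were not called, nor were Cubn (6.08 and 3.49 CPM) and Amn (3 and 2.21 CPM), the partners of megalin. Among 10 genes of ion and water transport, Aqp11 (-1.83) and Atp1b3 (-1.28) fell and Aqp3 (1.04) rose, the last not called without 8-cell library D (0.90), morula library B (0.88) and morula library D (0.86). Atp1b3, a sodium pump beta subunit, was at 384, 398, 343 and 383 CPM and 138, 166, 186 and 133 CPM. Atp1b1 (2.17 and 3.77 CPM), a beta subunit of the same pump, was not called.

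Few signalling and nutrient transport genes passed the test. Of 30 ligands and receptors, Acvr2b, an activin receptor, rose by 1.79, from 2.02 ± 0.561 to 9.4 ± 1.44 CPM, and Wnt7b by 1.45, from 0.248 ± 0.496 to 2.36 ± 1.04 CPM (not called by DESeq2). Fgf4 (8.38 and 5.72 CPM), Fgfr1 (11.1 and 9.27 CPM) and Fgfr2 (17.7 and 15.6 CPM), which later separate epiblast from primitive endoderm, were not called. Of 25 transporters, Slc38a1, a glutamine carrier, rose by 1.47 and Slc16a6, a monocarboxylate carrier, fell by 1.17, and 4 were called without morula library B. Of 15 annexins, S100 proteins and galectins, S100a11 rose by 1.42, from 117 ± 36.8 to 307 ± 36.4 CPM, and Lgals4 fell by 1.40, from 7.47 ± 3.67 to 2.53 ± 2.41 CPM.

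Few cell cycle genes passed the test. Of 36 DNA replication genes, Orc6, an origin recognition subunit, fell by 1.16, from 352, 298, 307 and 345 CPM to 128, 187, 135 and 135 CPM, and Gins3, of the replicative helicase, by 1.34, from 134 ± 10.4 to 52.4 ± 5.96 CPM. Gins2, in the same complex, rose by 1.02, from 3.98 ± 1.28 to 8.97 ± 1.67 CPM, and was not called without 8-cell library A (0.88) and morula library B (0.91). Of 17 mitosis genes, Bub1b, a spindle checkpoint kinase, rose by 1.42, from 20.9, 20.2, 22.5 and 18.1 CPM to 62, 62.8, 52.5 and 48.9 CPM, and Ccnb1 fell, as above. Cdk1 (142 and 199 CPM) and Ccna2 (616 and 345 CPM) were not called. At an unadjusted p under 0.05, limma had 3 mitosis genes higher and 6 lower, and edgeR and DESeq2 each 1 and 8 (median change -0.19). The summed CPM of the mitosis list was 6706 to 8304 in 8-cell and 3745 to 5451 in morula libraries. For the DNA replication genes the unadjusted counts were 6 and 10 with limma, 6 and 13 with edgeR and 6 and 14 with DESeq2 (median -0.007). Of 25 ribosome biogenesis genes limma called 0, with 1 higher and 7 lower at an unadjusted p under 0.05, while edgeR and DESeq2 each called 3 lower (median -0.23), and limma called 1 or 2 lower when any 1 library other than 8-cell library A or morula library D was left out. Of 86 cytosolic ribosomal protein genes limma also called 0, with 7 higher and 6 lower at an unadjusted p under 0.05, and edgeR and DESeq2 each called 2 lower (median 0.03). With 1 library left out limma called 1 lower without 8-cell library B, 2 lower without 8-cell library C and 1 higher without morula library D.

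Genes of DNA methylation showed 2 rises of 12 tested (median 0.06). Tet2, which oxidises methylated cytosine, was at 15.6, 10.3, 17.4 and 9.98 CPM and 77.6, 79.2, 67.7 and 112 CPM and rose by 2.58 (limma adjusted p 7.6e-11). Dnmt3b, a de novo methyltransferase, was at 19.3, 19.5, 22.3 and 19.6 CPM and 65.1, 48.8, 54.8 and 63.6 CPM and rose by 1.47. Both were free of overlap and called in every alternative. Dnmt1 (25.8 and 24.9 CPM), Uhrf1 (5.35 and 4.99 CPM) and Dnmt3a (26.4 and 22.7 CPM) were not called, and Dnmt3l was at 50.6 ± 11.3 and 92.9 ± 16.7 CPM (change 0.87), called only without 8-cell library C (1.00). Of 20 imprinted and X inactivation genes, 4 were called higher and 1 lower (median 0.38): Sfmbt2 (2.04, from 1.06 ± 0.622 to 8.2 ± 4.13 CPM), Peg3 (1.62, from 2.32 ± 0.656 to 9.22 ± 1.66 CPM), Jade1 (1.42) and Gab1 (1.01) rose and Phlda2 (-1.25) fell. Gab1 was not called without 8-cell library B (0.98), 8-cell library D (0.74) and morula library C (0.96) and Phlda2 not without 8-cell library D (-0.94), so that 3 were left without 8-cell library D. Xist, at 34.8 ± 7.82 and 64.3 ± 35.5 CPM, and Rlim, at 97.5 ± 22.2 and 124 ± 11.8 CPM, were not called, though Xist was called without morula library A (1.14).

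Some oocyte transcripts fell further. Of 30 oocyte and maternal effect genes, 5 were called lower and 1 higher (median -0.30). Omt2b fell by 1.94, from 68.6, 33, 50.2 and 43.2 CPM to 9.67, 13.1, 14.5 and 9.61 CPM, and its neighbour in the list, Omt2a, by 1.52, from 22.7 ± 10.2 to 7.18 ± 3.04 CPM. These are close relatives, and reads may be divided between them. Npm2, a nucleoplasmin of the egg, fell by 1.38, from 30 ± 3.11 to 11.4 ± 4.42 CPM, Oog1 by 1.06, from 2.08 ± 0.914 to 0.476 ± 0.473 CPM, and Zp3, a zona pellucida glycoprotein, by 1.00, from 23.1 ± 1.57 to 11.3 ± 3.15 CPM. The calls of Oog1 (without 8-cell library D (-0.90), morula library A (-0.98) and morula library C (-0.94)) and Zp3 (without 8-cell library B (-0.99), 8-cell library D (-0.98), morula library A (-0.87) and morula library D (-0.93)) were not kept throughout. The 1 rise was Khdc3, also called Filia, of the subcortical maternal complex, from 42.8, 39.7, 44.2 and 29.1 CPM to 238, 167, 243 and 290.2 CPM (change 2.55). More falls were called by other tools, 12 by edgeR and 12 by DESeq2 and 8 after quantile normalization, with 1 rise each time. Zp1 (1.69 and 2.76 CPM) and Zp2 (5.42 and 5.15 CPM) were not called.

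Of 15 genes of the 2-cell burst of genome activation, Tdpoz4 fell by 1.93, from 27.7 ± 8.14 to 6.63 ± 2.28 CPM, and Eif1ad7 rose by 2.56, from 4.09 ± 2.29 to 27.2 ± 5.02 CPM, both from families of near-identical copies and uncertain. Zscan4a, Zscan4b and Zscan4c were under 1 CPM on average in both stages. Among 329 genes named Zfp, 23 were called higher and 6 lower (median 0.18), or 14 and 10 after quantile normalization. Over all genes tested 8.18% were called higher and 3.7% lower, and the counts of 23 and 6 did not exceed these shares. Zfp704 rose most, by 2.71, from 0.54 ± 0.6 to 8.67 ± 2.11 CPM, followed by Zfp995 (1.66), Zfp248 (1.62), Zfp667 (1.59) and Zfp938 (1.58), and Zfp644 fell most. Of 52 histone genes the 1 called was H3f3b, while 2 were called higher and 1 lower without morula library B and 1 in each direction without 8-cell library A or D.

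Over the 8 stages of the series the changed genes had several courses. The neighbouring comparisons share the 8-cell or the morula libraries, so their values are given side by side as a description. From the 4-cell stage to the blastocyst Akr1b8 had means of 2.04 ± 0.644, 5.49 ± 4.88, 94.8 ± 50.4 and 503 ± 76.4 CPM, and its GV mean was 34 ± 6.24 CPM. Krt8 stood at 12.1 ± 5.01, 12.4 ± 3.47, 72.1 ± 17.9 and 1219 ± 128 CPM over the last 4 stages, and Cdx2 at 0.13 ± 0.195, 1.83 ± 2.37, 8.58 ± 4.2 and 92.5 ± 12.4 CPM. Tfcp2l1 stood at 10.8 ± 4.04, 30.4 ± 12, 186 ± 33.2 and 518 ± 108 CPM. In these 4 genes the morula mean lay between its neighbours.

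Other genes peaked or dipped at 1 of the stages compared. In 79 genes with a morula mean of at least 1 CPM all 4 morula values exceeded those of the other 28 transcriptome libraries, and 31 of them were called. Over all genes tested 11.9% were called, and these patterns and the calls draw on the same 8-cell and morula libraries. Oasl2 was the largest, at 6.09 ± 4.69 CPM in 4-cell embryos, 4.73 ± 1.7 in 8-cell embryos, 44.7 ± 13.5 in morulae and 1.97 ± 1.02 in blastocysts. Stard4 and Amot were also in this set, at 20 ± 5.66 and 21.7 ± 7.23 CPM in blastocysts. In 42 genes all 4 8-cell values lay below the other 28, and 26 were called. Trp53 led them, at 26.6 ± 7.76 CPM in 4-cell embryos, 14.4 ± 4.02 in 8-cell embryos, 68.1 ± 7.99 in morulae and 77.5 ± 6.74 in blastocysts.

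The reverse patterns held fewer called genes, and fewer genes were called lower (542) than higher (1198) in all. In 56 genes with an 8-cell mean of at least 1 CPM the 8-cell values exceeded all others, and 8 were called, among them Mt1, at 3303 ± 381 CPM in 4-cell embryos, 5298 ± 925 in 8-cell embryos, 2446 ± 368 in morulae and 2105 ± 388 in blastocysts. In 18 genes the morula values lay below all others, and 11 were called, among them Vcl, at 14.1 ± 3.32, 13.4 ± 1.06, 5.07 ± 1.78 and 10.2 ± 1.57 CPM over the same stages. Klf17 had 872 ± 127 CPM in mature (MII) oocytes, then 252 ± 56.3, 196 ± 58.2, 92.9 ± 16.6, 13.4 ± 6.2 and 2.52 ± 1.15 CPM from the 2-cell stage to the blastocyst. Inka1 differed, with 0.622 ± 0.218 CPM in the GV oocyte and 22.5 ± 10.1, 114 ± 21, 115 ± 12.2, 8.96 ± 4.14 and 2.24 ± 0.89 CPM over that same span. It was thus highest at the 4-cell and 8-cell stages, where Klf17 was already lower than in the oocyte.

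**Figure D4:**
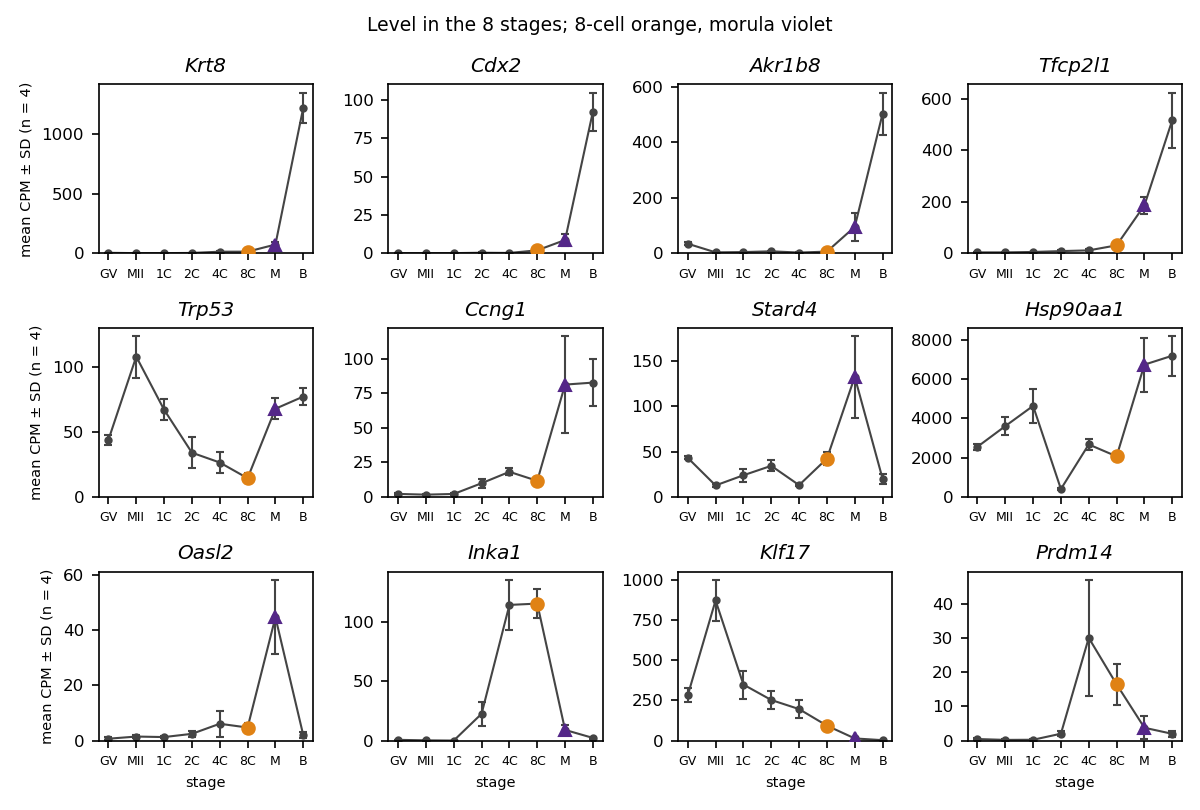
Mean CPM ± SD over the 4 transcriptome libraries of each of the 8 stages, for 12 genes, on linear axes starting at 0. Krt8, Cdx2, Akr1b8 and Tfcp2l1 climb into the blastocyst, Oasl2 and Stard4 peak in the morula, Trp53 is lowest at the 8-cell stage, and Inka1, Klf17 and Prdm14 fall between the 8-cell stage and the morula.

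A further readout came from other embryos of the same batches. Lysates of about 100 embryos per gradient, made with cycloheximide to hold ribosomes in place, were spun through sucrose, and fractions 6 to 10 of 10, the heavy side where ribosome-bound RNA collects, were averaged within each of 3 gradients a stage. Of 14524 genes tested there with limma, 1159 were called between the 8-cell stage and the morula (7.98%), 787 higher (5.42%) and 372 lower (2.56%). After quantile normalization 1227 were called, 696 higher and 531 lower. Of the 1184 genes that rose in the transcriptome and had a heavy-fraction value, 286 were called higher there too and 2 lower, and of the 536 that fell, 111 were lower and 1 higher. The median heavy-fraction change was 1.51 among the genes that rose in the transcriptome, -1.48 among those that fell and 0.04 over all genes with both values.

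Epithelial genes of the trophectoderm were among those that rose in the heavy fractions. Of 18 with a heavy-fraction value, 10 were called higher, with a median change of 2.76. Krt8 was at 30.2, 16.9 and 11 CPM in the heavy fractions of the 3 8-cell gradients and 345, 780.1 and 626 CPM in those of morulae, a change of 4.88 (limma adjusted p 0.000223). Lrp2 was at 0.0975, 0.129 and 0.0791 CPM and 16.6, 14 and 36.3 CPM, and Dab2 at 0.206, 0 and 0.109 CPM and 133, 88.5 and 107 CPM. No morula gradient overlapped an 8-cell gradient in these 3 genes. Cdx2 went from 32.8 ± 34.9 to 230 ± 64.5 CPM and Gata3 from 4.42 ± 4.21 to 40.9 ± 3.45 CPM, both called higher. The call of Cdx2 was lost when the 8-cell and morula gradients were fitted alone (limma adjusted p 0.076). That of Gata3 was lost without 8-cell gradient B (2.49) and without any 1 of the morula gradients (3.42 to 3.53).

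Of 32 antioxidant genes, 9 were called higher and 2 lower in the heavy fractions, or 6 and 0 without morula gradient B and 7 and 0 without morula gradient C. Of 24 cholesterol genes 1, Nsdhl, was called (from 0.0091 ± 0.0158 to 17 ± 7.23 CPM), and 2 were called without 8-cell gradient B. Insig1, at 33.3 ± 14.8 and 45.7 ± 29.7 CPM, and Stard4, at 34 ± 15.7 and 66.8 ± 15.8 CPM, were not called there. Of 17 p53 genes 1 was called higher and 1 lower in the heavy fractions, and Trp53 was at 31.6 ± 15.3 and 146 ± 7.29 CPM, not called (change 2.31, limma adjusted p 0.127). Of 30 oocyte genes 11 were called lower and 1 higher, with a median change of -2.18, and with fractions 8 to 10 alone 5 were lower. Of 18 apical-basal polarity genes 0 were called higher and 2 lower in the heavy fractions (median -0.17). Of 37 proteasome genes 6 were called higher there and 0 lower (median 1.25). Among the large falls, Inka1 went from 184 ± 40.3 to 20.8 ± 4.07 CPM, Klf17 from 259 ± 95.8 to 21 ± 5.84 CPM and Tmem229b from 1590 ± 449 to 52.3 ± 22.7 CPM, all called lower, though Inka1 not with fractions 8 to 10 alone (limma adjusted p 0.133), while Brdt, at 7.41 ± 12.8 and 0.00346 ± 0.00599 CPM, and Tiparp, at 34.3 ± 39.4 and 1.91 ± 1.76 CPM, were not. A gradient mean rests on 3 gradients of wide spread, so a missing call there does not show that the readouts differ.

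**Figure D5:**
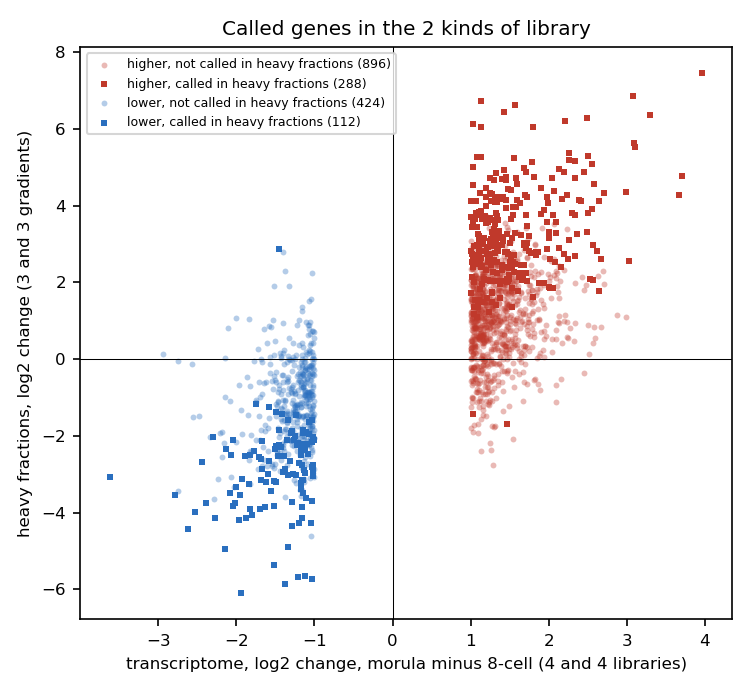
Change in the heavy fractions (vertical axis, log2 of mean CPM + 1) against change in the transcriptome (horizontal axis, log2 of CPM + 1) for genes called in the transcriptome. Red marks genes that rose and blue genes that fell in the transcriptome, and squares mark those also called in the heavy fractions. Squares lie mostly in the upper right (286 genes) and lower left (111 genes), and 3 lie elsewhere.

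Whether a gene changed more in the heavy fractions than in the transcriptome was tested with an interaction term, stage by readout. Of 15165 genes, 978 were called (6.45%), 602 higher (3.97%) and 376 lower (2.48%). Of 18 trophectoderm epithelial genes 7 were called higher, of 32 antioxidant genes 4 higher and 1 lower, and of 30 oocyte genes 12 lower. Of 37 proteasome genes 6 were called higher, and of 18 apical-basal polarity genes 1 lower. Of 24 cholesterol genes limma called 0 here, with 4 higher and 2 lower at an unadjusted p under 0.05, and 1 in each direction without 8-cell gradient A and 1 higher without 8-cell gradient B, so a difference between the readouts was not shown for this list. The largest positive differences were in genes that were low in the transcriptome. Il17rc, an interleukin-17 receptor chain, was at 0.382 and 0.943 CPM in the transcriptome and went from 0.0734 ± 0.0652 to 122 ± 21.7 CPM in the heavy fractions, a difference of 6.39 (limma adjusted p 1.05e-07). Rab17, a trafficking GTPase of polarised epithelia, was at 0.0169 and 1.43 CPM and went from 0.0544 ± 0.0495 to 116 ± 51.7 CPM (difference 5.58). It was also called in the transcriptome, by 1.13, though not without morula library C (0.83). Dppa1 was at 0.369 and 0.804 CPM and went from 0.185 ± 0.148 to 70 ± 19.4 CPM (difference 5.53), Xbp1, a factor of the unfolded protein response, was at 2.16 and 4.41 CPM and went from 3.98 ± 6.74 to 135 ± 24.5 CPM (difference 5.15), and Pik3r6 was at 4.06 and 9.36 CPM and went from 0.212 ± 0.198 to 83.8 ± 16.9 CPM (difference 5.10). Pik3r6 was called in the transcriptome as well, by 1.02, though not without 8-cell library D (0.87), morula library A (0.90) and morula library D (0.99). That transcriptome call was also lost with edgeR, DESeq2, a pseudocount of 0.1 and quantile normalization.

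The largest negative differences were all in genes abundant in the oocyte. Gdf9, an oocyte growth factor, was at 7.21 ± 1.7 and 5.43 ± 2.51 CPM in the transcriptomes of 8-cell embryos and morulae and at 5666 ± 412 CPM in GV oocytes, and went from 61.8 ± 26.1 to 0.286 ± 0.176 CPM in the heavy fractions, a difference of -5.14 (limma adjusted p 4.13e-05). Fbxw24 (from 88.7 ± 35 to 0.315 ± 0.508 CPM, difference -6.11), Zbed3, of the subcortical maternal complex (from 194 ± 90.5 to 5.05 ± 5.83 CPM, difference -5.22), Bcl2l10, of the BCL2 family (from 50.5 ± 20.3 to 0.0278 ± 0.0394 CPM, difference -5.08), and Oas1d (from 63.1 ± 62.2 to 0.274 ± 0.234 CPM, difference -5.01) were the other 4. In GV oocytes these stood at 8507 ± 685, 7090 ± 492, 3673 ± 174 and 2952 ± 312 CPM. None of the 5 was called in the transcriptome. Each of the 10 differences was called in every alternative. Among the largest changes of the transcriptome, Akr1b8 (difference 3.48) and Sdc4 (difference 3.77) rose more in the heavy fractions, and Tmem229b (difference -2.80) fell more there. The difference of Sdc4 was not called with a pseudocount of 0.1 (limma adjusted p 0.0593). Elf3 (3.06), Cryab (2.41) and Exoc3l2 (-1.36) were called for such a difference as well, and were not followed through the alternatives.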

How the data were processed

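Polyadenylated RNA of pooled embryos was sequenced, and the deposited table gives counts-per-million (CPM) for 15854 gene symbols in 272 libraries. Per the submitters' processing notes, Trim Galore 0.6.7, FastQC, HISAT2 2.2.1, featureCounts 2.0.1, edgeR and the build GRCm39 were used; strand and multi-mapping settings are not given in the sources used here. In 9 columns, none of an 8-cell or morula library, the deposited CPM sum to more than their nominal total because symbols repeat rows, so those columns were declared as a signal. In 76 sets of identical rows, holding 159 symbols, 1 row each was kept, leaving 15771. All 8 libraries gave whole reads from their CPM steps (100% of values within 0.05 of a whole number), and these reads went to edgeR 4.0.16 and DESeq2 1.42.0 as alternatives.

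The main test was limma 3.58.1 (R 4.3.3) with a mean trend on log2(CPM + 1), over all 8 stages, for genes with at least 1 CPM in at least 4 libraries. The added 1 shrinks the change of low genes. Heavy-fraction values were the mean CPM of fractions 6 to 10 of each gradient (30 libraries, 14761902 to 42819723 reads), tested in the same way. The tests were tested on simulated data with known changes. A count of 3 reads corresponds to a mean of 0.168 CPM over the 8-cell and 0.139 CPM over the morula libraries.

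Genes named were the 15 largest rises and falls among called genes without overlap and with at least 10 CPM (predicted Gm, Rik, LOC, AC and BC symbols left out), the 5 largest gains and losses of mean CPM, the first 3 members and up to 6 called members of each list, any gene with at most 3 reads in every library of 1 stage and at least 10 CPM throughout the other (there was none), and the 5 largest differences between readouts in each direction. Further list members, among them Yap1 and Gapdh, were named after their values were seen, and some genes that the rule names are not reported here. Members and lists were chosen with earlier results of these data known. The letters A to D did not pair the libraries. Alternatives changed the pseudocount, filter, scaling, tool, samples, fractions and block, and left out each library. Calculations used Python 3.11.15, numpy 2.4.6, pandas 2.3.3 and scipy 1.17.1.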

Additional observations from a re-analysis of the deposited data

Results flagged for a closer look

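In groups of 4 libraries, a highest or lowest value was singled out where its gap to the nearest other, divided by the range of the group, was above Dixon's 95% critical value, which chance passes in about 1 of 20 groups. Of 448 groups of named genes, 37 held such a value (8.26%), of which 10 were in morula library A, 7 in 8-cell library C, 6 in morula library D and 5 in morula library B. Morula library A stood above the other 3 for Fasn (145 CPM against 71.7 to 76.4), Hspa1a (2.18 CPM against 0.906 to 1.04), Perp (52.9 CPM against 28.1 to 30), Phlda3 (27.5 CPM against 6.54 to 8.31), Stk10 (9.42 CPM against 5.43 to 6.03), Tead4 (126 CPM against 81.9 to 86.2) and Trp53 (80.05 CPM against 63.6 to 65). The same library stood below them for Ccnb1 (742 CPM against 1688 to 1771), Cldn4 (25.6 CPM against 47 to 49.6) and Nsdhl (9.52 CPM against 20.6 to 22.5). Morula library B stood above the other 3 for Itga3 (17.2 CPM against 12.2 to 12.5), Jade1 (32.5 CPM against 15.9 to 18.7) and Orc6 (187 CPM against 128 to 135). The same library stood below them for Gclc (3.69 CPM against 7.86 to 8.52) and Pnpla2 (9.59 CPM against 19.6 to 20.3). Morula library C stood above the other 3 for Acat2 (90.3 CPM against 71.6 to 74.1). The same library stood below them for Capg (4.63 CPM against 7.79 to 8.09) and Zfp704 (5.53 CPM against 9.51 to 10). Morula library D stood above the other 3 for Lats1 (22.9 CPM against 11.2 to 13), Wnt7b (3.9 CPM against 1.69 to 2.06) and Zfp248 (5.94 CPM against 2.58 to 2.69). It stood below them for Lats2 (12.4 CPM against 15.9 to 16.4), Shmt2 (13.3 CPM against 17 to 17.8) and Zp2 (3.49 CPM against 5.62 to 5.77). 8-cell library A stood above the other 3 for Dnmt1 (30.7 CPM against 23.6 to 24.5) and Gsto1 (208 CPM against 98.8 to 116). 8-cell library B stood above the other 3 for Ctnnb1 (34.2 CPM against 21.4 to 23.1). It stood below them for Hspa8 (2418 CPM against 2872 to 2932). 8-cell library C stood above the other 3 for Dnmt3b (22.3 CPM against 19.3 to 19.6), Keap1 (16.4 CPM against 11.7 to 12.4), Mdm2 (48.4 CPM against 37.7 to 38.5) and Tpm1 (40.5 CPM against 22.7 to 25.6). It stood below them for Capg (0.69 CPM against 3.54 to 4.06), Gins3 (118 CPM against 137 to 141) and H3f3b (2061 CPM against 2740 to 2806). 8-cell library D stood above the other 3 for Phlda2 (55.8 CPM against 21.4 to 26.5) and Rlim (131 CPM against 83 to 88.7).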

How the results depend on the processing

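The count of genes called in the transcriptome (1740) was 2647 with DESeq2 and 1141 among genes with a mean of at least 5 CPM, where fewer genes were tested; the other alternatives gave 1547 to 2501, and leaving out 1 library gave 1633 to 1942. Of 166 called genes named in the text, 116 kept their call in each of the 18 alternatives that tested them, 50 lost it in at least 1 and 0 changed sign. Calls were lost most with quantile normalization (27), DESeq2 (26), without 8-cell library D (22), with edgeR (20) and without morula library A (18). Beside many genes above only losses with 1 library left out are named, and those by tool, pseudocount or scaling are not all given. The heavy-fraction count (1159) ran from 822 to 1115 with 1 gradient left out, and the count of differences between readouts (978) ran from 816 to 1269 and was 629 among genes with a mean of at least 5 CPM. The letters do not pair the libraries: deviations of same-lettered libraries correlated at 0.04, -0.03, -0.00 and 0.06, and those of gradients at -0.01, -0.07 and -0.00. With the letter as a replicate block 1648 transcriptome genes and 582 heavy-fraction genes were called. The difference in genes at 1 CPM or more (294) was 250 to 348 with 1 library left out, a check added after the data were seen (254 to 324 with a morula library left out). The stages stayed apart each time, and with so few libraries the exact permutation p says nothing about stability. Depth limits the lowest genes, since 3 reads correspond to a mean of 0.168 CPM over the 8-cell libraries. Mitochondrial transcripts were not in the rows used, so the alternative without Rn18s removed that row alone.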
